A study of Mus musculus with 11 samples.

Results

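A set of 10 genes known as markers of the pericentral zone of the liver lobule, Glul, Oat, Axin2, Lgr5, Tbx3, Rhbg, Cyp2e1, Cyp1a2, Lect2 and Slc1a2, were followed in liver RNA-seq libraries. They were chosen by symbol as textbook zonation markers and targets of WNT signaling, and 9 of these 10 genes were matched to a row among the 36788 rows of the table by Ensembl identifier. Rhbg was matched to no row and is not analysed here. All 11 mice were ovariectomized (OVX) wild-type C57BL/6 females older than 12 weeks on a high-fat diet (HFD). The study's methods, however, describe a mixed genetic background for all mice, of which C57BL/6J is one part. Of the 11 mice, 5 received daily injections of 30 IU/kg follicle-stimulating hormone (FSH) and 6 received saline. The untreated state with ovaries or on normal chow was thus not part of the comparison. Mice are named by the numbers in the labels, which run from 1 to 6 without a number 5 in the FSH group. Each library came from a whole liver digested with papain, in which all zones and cell types are mixed.

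Hepatocytes differ along the path of blood from the portal tract to the central vein. Endothelial cells at the central vein secrete WNT ligands and R-spondin, which stabilize beta-catenin in the neighbouring hepatocytes and keep the pericentral program on, while hepatocytes near the portal tract run urea synthesis, gluconeogenesis and amino acid breakdown. The hepatocytes closest to the vein take up glutamate and ammonia and make glutamine, and a wider pericentral field carries the cytochrome P450 enzymes of drug metabolism. In bulk RNA a narrower zone and less RNA per cell within the same zone cannot be told apart.

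The values are in CPM, the reads counted on a gene scaled to a library total of 1000000. Between 10801891 and 19909327 reads were counted on genes per library, and a gene with 0 reads could have had up to 3 reads, or 0.151 to 0.278 CPM depending on the library, which covers counting error only. Along the first principal component (31.0% of the variance) all FSH livers lay apart from all saline livers. Differences were tested with limma on log2(CPM + 0.5) over 12733 genes that averaged 0.5 CPM or more, and all 9 members with a row passed that filter. A gene was called at an adjusted p under 0.05, and the threshold of the study's methods, an absolute log2 fold change over 1, was read as well. Fold changes are those of CPM + 0.5, so for genes with low values they come out smaller than the change in CPM. The labels give no litter, cage or day, so p-values measure the spread between these livers.

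The share of pericentral genes called between FSH and saline livers was near that of all genes. Of the 9 tested members, 1 was called (11.1%), against 10.6% of all genes tested, and that member, Lect2, was higher with FSH, as were 6.19% of all genes tested, while 0 members and 4.41% of all genes were called lower. No member passed both thresholds (0 of 9 in limma, and 0 in edgeR, DESeq2 and voom as well), against 1.83% of all genes tested (0.887% higher with FSH). An unadjusted p under 0.05 was found for 4 of the 9 (Lect2, Glul, Oat and Tbx3), against 25.1% of all genes tested. The FSH and saline values overlapped for each of the 9 members, whereas 6.67% of all genes tested had separate groups (3.95% with FSH above saline). The median log2 fold change of the members was 0.20, with 6 above and 3 below 0, beside a median of 0.02 over all genes tested. For 8 of the 9 members the whole 95% interval of the difference lay within a log2 fold change of 1 in either direction, and Tbx3 was the exception.

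**Figure D1:**
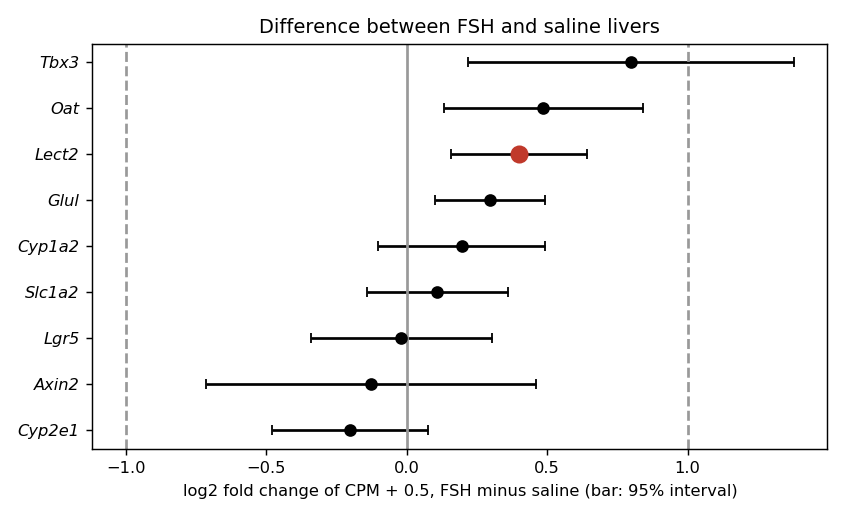
Log2 fold change of CPM + 0.5 between FSH (n = 5) and saline (n = 6) livers for the 9 pericentral genes with a row (points), with 95% intervals from limma (bars); dashed lines mark a log2 fold change of 1 in either direction and the red point is Lect2, the member with an adjusted p under 0.05. The intervals of Lect2, Glul, Oat and Tbx3 lie above 0, and that of Tbx3 reaches 1.38.

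The members spanned a wide range of levels. To compare genes with each other, mean CPM was divided by the length of all annotated exons of the gene in kilobases. On this scale (CPM per kilobase) Cyp2e1 was at 3761 ± 543 (SD, n = 6) in saline livers. It was followed by Glul at 255 ± 21.4, Oat at 209.7 ± 39.4, Cyp1a2 at 175.8 ± 28.1 and Lect2 at 159 ± 27.2 (SD, n = 6 each). The mean ± SD ranges of neighbours in this order overlapped (Glul with Oat, Oat with Cyp1a2, Cyp1a2 with Lect2), while that of Glul lay above those of Cyp1a2 and Lect2. Slc1a2 was at 8.77 ± 1.03, Tbx3 at 2.33 ± 0.94, Axin2 at 1.01 ± 0.39 and Lgr5 at 0.41 ± 0.084 per kilobase (SD, n = 6 each), and only the ranges of Tbx3 and Axin2 overlapped among these. With FSH the order was the same except that Lect2 (207.7 ± 14.9, SD, n = 5) and Cyp1a2 (202.8 ± 46.5, SD, n = 5) changed places, and their ranges overlapped there too. The pericentral enzyme genes were thus measured at high depth, while Axin2 rested on 36 to 127 reads per liver and Lgr5 on 39 to 87.

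**Figure D2:**
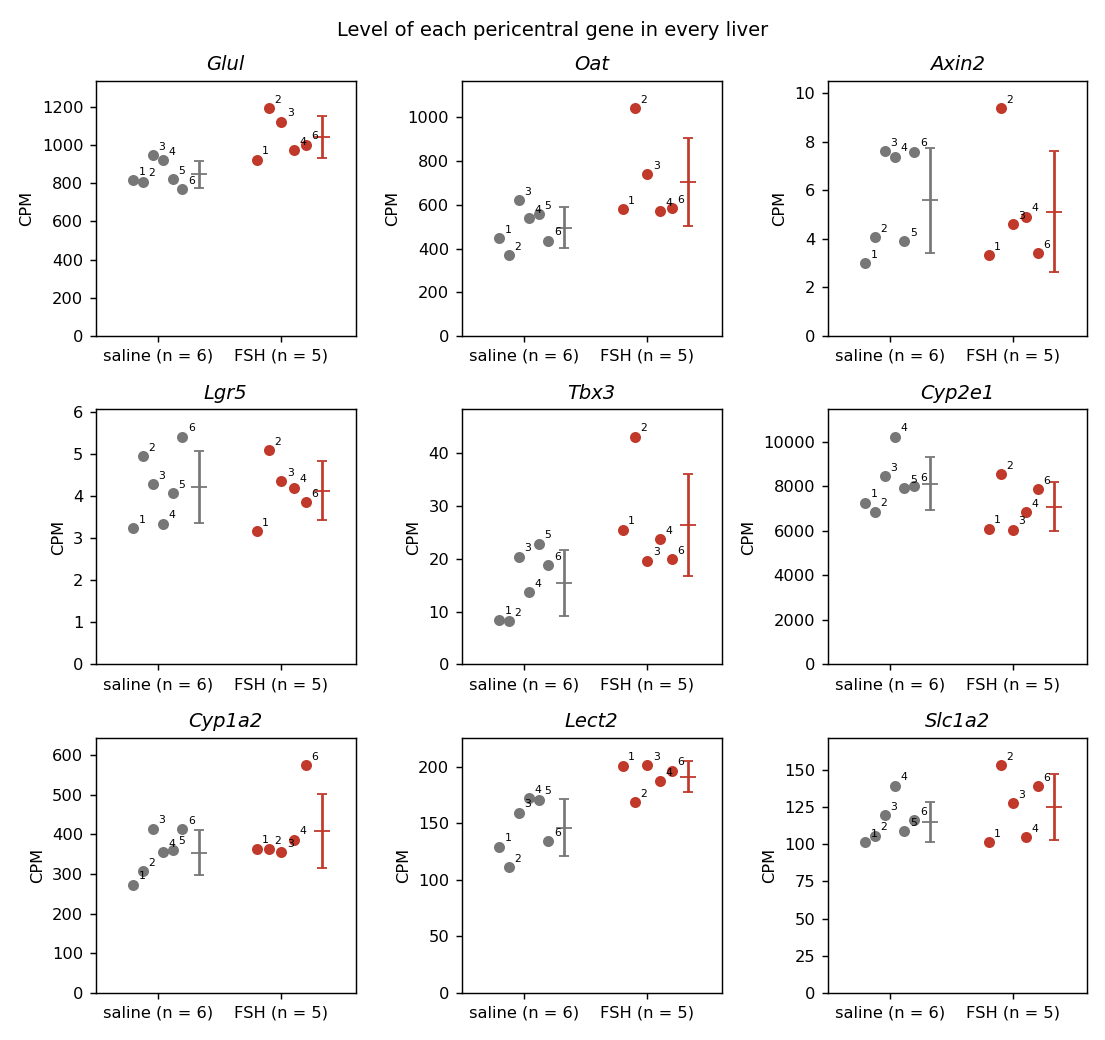
CPM of each of the 9 genes in every liver (y axis from 0; gray points saline, n = 6; red points FSH, n = 5; the number beside a point is the mouse), with mean and SD at the right of each group. The FSH and saline points overlap in every panel, and FSH-treated mouse 2 is the highest FSH liver in 7 of the 9 panels.

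Lect2 (ENSMUSG00000021539.8) encodes leukocyte cell-derived chemotaxin 2, a protein that hepatocytes secrete and a target of beta-catenin in the liver. The gene lies on chromosome 13 of GRCm38 from 56542464 to 56548502 on the minus strand, and no other gene of the annotation overlaps it. Its promoter is shown because it is the member that passed the test. The 250 bases before the start of its RefSeq transcript (chr13:56548539-56548788, minus strand, GRCm38.p6) overlap no annotated exon of the gene. The capitals mark the core of the sequence that the beta-catenin partners TCF and LEF bind, TCAAAG, whose first base lies 31 bases before the start:
Lect2: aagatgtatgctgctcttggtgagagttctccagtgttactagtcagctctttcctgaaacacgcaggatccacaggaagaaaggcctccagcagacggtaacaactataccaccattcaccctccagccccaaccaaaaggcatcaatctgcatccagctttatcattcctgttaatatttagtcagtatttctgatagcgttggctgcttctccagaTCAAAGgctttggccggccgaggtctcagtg

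In the FSH livers Lect2 was at 201 (mouse 1), 168.6 (mouse 2), 201.2 (mouse 3), 187.2 (mouse 4) and 196.5 CPM (mouse 6). In the saline livers it was at 129.2, 111, 159.4, 172.3, 170.7 and 134.3 CPM (mice 1 to 6). Of the 5 FSH livers, 4 lay above the highest saline liver, and mouse 2 lay below saline-treated mice 4 and 5. The FSH livers were also closer to each other, with a coefficient of variation of 7.17% against 17.1% with saline. Mean Lect2 was thus 190.9 ± 13.7 CPM (SD, n = 5) after FSH, up from 146.1 ± 25 CPM (SD, n = 6). This is a 1.32-fold rise, or 0.40 on the log2 scale (95% interval 0.16 to 0.64, standard error 0.11, limma adjusted p = 0.0364). Permuting the livers exactly (462 splits, two-sided, smallest possible p = 0.00216) gave p = 0.013. The call was lost in 14 of 23 alternatives, in all of which the direction was kept. Among these, scaling between libraries by TMM gave an adjusted p of 0.0769 and edgeR on the recovered reads gave 0.0891. It was lost without FSH-treated mouse 1 (limma adjusted p = 0.0959), 3 (0.0849), 4 (0.0689) or 6 (0.0574) and without saline-treated mouse 1 (0.0703), 2 (0.0598) or 6 (0.0662).

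The genes whose values followed those of Lect2 most closely over the 11 livers were found by the root mean square difference of log2(CPM + 0.5), each gene centred on its own mean, among 11812 tested genes with a symbol that is not that of a predicted gene. They were Stoml1 (difference 0.10), Nsmce2 (0.12) and Fbxl21 (0.12). Fbxl21, which encodes an F-box protein that binds cryptochromes, is also a neighbour of Lect2 on chromosome 13 of GRCm38, from 56522472 to 56537898 on the plus strand. The genes lie 4565 bases apart on opposite strands, with their ends facing each other and no annotated gene between them. Fbxl21 rose from 4.13 ± 0.66 CPM (SD, n = 6) to 6.06 ± 0.58 CPM (SD, n = 5), by 0.51 on the log2 scale (limma adjusted p = 0.0197). The log2 values were 0.41 for Nsmce2 (limma adjusted p = 0.0397) and 0.27 for Stoml1 (limma adjusted p = 0.256), so the nearest gene was not called itself. These genes were chosen by their likeness to Lect2 over the same livers. A difference between the groups like that of Lect2 was thus built into the choice, and their p-values add no separate evidence.

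The glutamate and ammonia genes of the innermost pericentral hepatocytes were Glul, Oat, Slc1a2 and Rhbg, the last of which had no matched row. Glul (ENSMUSG00000026473.9), which encodes glutamine synthetase, lies on chromosome 1 of GRCm38 from 153899944 to 153909723 on the plus strand and overlaps Teddm2 on the other strand and the microRNA gene Mir8114. It was at 924.2, 1193, 1123, 974.8 and 1003 CPM in FSH-treated mice 1, 2, 3, 4 and 6. It was at 815.7, 808.5, 948.9, 921.9, 822.7 and 767.8 CPM in saline-treated mice 1 to 6. Again 4 of the 5 FSH livers lay above the highest saline liver, with FSH-treated mouse 1 between saline-treated mice 3 and 4. The log2 fold change of 0.30 (95% interval 0.10 to 0.49) missed the threshold (limma adjusted p = 0.0513), although the exact permutation test of this gene alone gave p = 0.00866 (two-sided). Glul was called in 3 of 23 alternatives, with DESeq2 on the recovered reads (adjusted p = 0.0317), with a filter at a mean of 1 CPM (limma adjusted p = 0.0479) and without saline-treated mouse 3 (limma adjusted p = 0.0486).

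Oat (ENSMUSG00000030934.8) encodes ornithine aminotransferase, which turns ornithine into a precursor of glutamate. On chromosome 7 of GRCm38 it spans 132557478 to 132576398 (minus strand) and overlaps Fgfr2 on the same strand. It was at 580.1, 1042, 739, 571 and 585.2 CPM in FSH-treated mice 1, 2, 3, 4 and 6. It was at 447.9, 369.3, 620.7, 539.6, 557.2 and 435 CPM in saline-treated mice 1 to 6. All FSH livers lay above the saline median, but only mice 2 and 3 lay above the highest saline liver, and mouse 2 stood well above the rest. Oat had a log2 fold change of 0.49 (95% interval 0.13 to 0.84, limma adjusted p = 0.0753; exact permutation test, two-sided, p = 0.0346). Without FSH-treated mouse 2 it was 0.34 (limma adjusted p = 0.158), and DESeq2 on the recovered reads gave an adjusted p of 0.0421.

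Slc1a2 (ENSMUSG00000005089.9) encodes the glutamate transporter of glial cells and hepatocytes. On chromosome 2 of GRCm38 it spans 102658659 to 102790784 (plus strand), with the antisense gene Gm13872 on the other strand. Its values were 101.5, 153.1, 127.4, 104.8 and 139.1 CPM in FSH-treated mice 1, 2, 3, 4 and 6. In saline-treated mice 1 to 6 they were 101.2, 105.7, 119.5, 139.2, 109 and 116.2 CPM. The groups lay over each other, with FSH-treated mouse 2 alone above the saline range. Its log2 fold change was 0.11 with a 95% interval of -0.14 to 0.36 (limma adjusted p = 0.617), so the interval ran from 0.908-fold to 1.28-fold.

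Axin2, Lgr5 and Tbx3 stand closest to WNT signaling itself. Axin2 (ENSMUSG00000000142.9) encodes a scaffold of the complex that degrades beta-catenin and is switched on by beta-catenin as negative feedback, which makes it a common reporter of the pathway. It lies on chromosome 11 of GRCm38 from 108920349 to 108950783 on the plus strand, with the antisense gene Gm11670 on the other strand. It was at 3.32, 9.37, 4.59, 4.91 and 3.42 CPM in FSH-treated mice 1, 2, 3, 4 and 6. It was at 2.99, 4.07, 7.61, 7.38, 3.89 and 7.59 CPM in saline-treated mice 1 to 6. The saline livers fell into a lower trio (mice 1, 2 and 5) and a higher trio (mice 3, 4 and 6), and FSH-treated mouse 2 had the highest value of all while the other FSH livers lay between 3.32 and 4.91 CPM. The coefficient of variation was 48.4% with FSH and 38.6% with saline, the largest among the members with FSH. The log2 fold change was -0.13 with a 95% interval of -0.71 to 0.46 (limma adjusted p = 0.826), and it was -0.35 (limma adjusted p = 0.43) without FSH-treated mouse 2.

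Lgr5 (ENSMUSG00000020140.9), which encodes a receptor for R-spondins, lies on chromosome 10 of GRCm38 from 115450311 to 115587780 on the minus strand, with A930009A15Rik on the other strand. It was at 3.16, 5.09, 4.36, 4.20 and 3.86 CPM in FSH-treated mice 1, 2, 3, 4 and 6. It was at 3.24, 4.95, 4.28, 3.35, 4.07 and 5.41 CPM in saline-treated mice 1 to 6. The group medians were 4.20 and 4.18 CPM, and the log2 fold change was -0.02 with a 95% interval of -0.34 to 0.30 (limma adjusted p = 0.958), the smallest difference of the 9 members. Its sign turned when FSH-treated mouse 1 (log2 fold change 0.062), saline-treated mouse 2 (0.026) or saline-treated mouse 6 (0.05) was left out.

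Tbx3 (ENSMUSG00000018604.12) encodes a T-box transcription factor that beta-catenin activates in hepatocytes. It lies on chromosome 5 of GRCm38 from 119670669 to 119684724 on the plus strand, with the antisense gene Tbx3os1 on the other strand, and since the use of strand in counting is not given in the sources used here, reads of such partners cannot be told apart. Tbx3 was at 25.5, 43.1, 19.7, 23.7 and 19.9 CPM in FSH-treated mice 1, 2, 3, 4 and 6. It was at 8.47, 8.22, 20.4, 13.7, 22.9 and 18.8 CPM in saline-treated mice 1 to 6. FSH-treated mice 1, 2 and 4 lay above all saline livers. Saline-treated mice 1 and 2 were the lowest and FSH-treated mouse 2 was the highest, so that the highest value was 5.24-fold the lowest, the widest span of the members. The log2 fold change of 0.80 was the largest of the 9 but its 95% interval ran from 0.22 to 1.38 (limma adjusted p = 0.0756; exact permutation test, two-sided, p = 0.0433). Without FSH-treated mouse 2 it was 0.61 (limma adjusted p = 0.173), without saline-treated mouse 5 it was 0.93 (limma adjusted p = 0.0436), and DESeq2 on the recovered reads gave an adjusted p of 0.038.

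Cyp2e1 and Cyp1a2 represent the pericentral cytochrome P450 enzymes. Cyp2e1 (ENSMUSG00000025479.8), which oxidizes ethanol and acetaminophen, lies on chromosome 7 of GRCm38 from 140763739 to 140774987 on the plus strand. It was at 6086, 8529, 6054, 6819 and 7857 CPM in FSH-treated mice 1, 2, 3, 4 and 6. It was at 7264, 6861, 8449, 10214, 7921 and 7993 CPM in saline-treated mice 1 to 6. Mice 1, 3 and 4 of the FSH group lay below the lowest saline liver, and the others lay within the saline range. For Cyp2e1 the log2 fold change was -0.20 with a 95% interval of -0.48 to 0.08 (limma adjusted p = 0.375), so that it and the glutamine synthetase gene Glul had differences of opposite sign, neither of which was called.

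Cyp1a2 (ENSMUSG00000032310.3), which metabolizes caffeine and is induced through the aryl hydrocarbon receptor, lies on chromosome 9 of GRCm38 from 57676937 to 57683703 on the minus strand. It was at 363.6, 362, 354.8, 386.1 and 574.3 CPM in FSH-treated mice 1, 2, 3, 4 and 6. It was at 272.7, 306.6, 414.5, 355.1, 361.5 and 412.5 CPM in saline-treated mice 1 to 6. FSH-treated mouse 6 lay above all other livers, and the remaining FSH livers lay within the saline range. The log2 fold change was 0.20 with a 95% interval of -0.10 to 0.49 (limma adjusted p = 0.426), and without FSH-treated mouse 6 it was 0.07 (limma adjusted p = 0.767). Of a list of 10 genes of the aryl hydrocarbon receptor pathway, 7 were tested and 1 was called (14.3%, near the 10.6% of all genes tested), Nqo1, a quinone reductase gene that rose to 10.8 ± 1.73 CPM (SD, n = 5) from 5.99 ± 0.78 CPM (SD, n = 6; log2 fold change 0.80, limma adjusted p = 0.0012). The list held 3 called genes when FSH-treated mouse 6 was left out and 2 when saline-treated mouse 5 was. Values below the threshold were -0.40 on the log2 scale for the receptor gene Ahr (limma adjusted p = 0.0727) and 0.20 for Ugt1a6a (limma adjusted p = 0.422), which encodes a glucuronosyltransferase and shares exons with its neighbours, so that its reads could be split among them.

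RefSeq promoter sequences of GRCm38.p6 were given for 7 of the members, and the 250 bases before the start were searched on both strands for TCAAAG, which reads CTTTGA on the other strand. It was found for 4 of the 7, namely Lect2, Cyp2e1, Cyp1a2 and Slc1a2, and was not found in these windows of Glul, Oat and Axin2. Of 32851 promoter windows in the table, 13.8% held it. The stretches around the matches are shown beside that of Lect2, with the match in capitals, to let the neighbouring bases be compared. They lie at chr7:140763672-140763701 (plus strand, Cyp2e1), chr9:57683881-57683905 (minus strand, Cyp1a2), and chr2:102706220-102706249 and chr2:102706349-102706378 (plus strand, Slc1a2). The RefSeq start of Slc1a2 used here lies inside the longer gene of the GENCODE annotation, and the second of its stretches overlaps an annotated exon.
Cyp2e1: ccaagggtcagcCTTTGAaatgatagccaa
Cyp1a2: tattcttTCAAAGacatataccttg
Slc1a2, first: agaagagggacaTCAAAGgccccaaatggt
Slc1a2, second: agcatgtgacttCTTTGAcatcaaaacact
Genes with and without a match had overlapping log2 fold changes, 0.40 for Lect2, -0.20 for Cyp2e1, 0.20 for Cyp1a2 and 0.11 for Slc1a2 with a match, and 0.49 for Oat, 0.30 for Glul and -0.13 for Axin2 without. No difference between them was tested. A match of so few letters is a description of the window and does not mark a binding site.

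The livers differed among themselves in the whole set of members. The mean of the 9 genes, each in log2(CPM + 0.5) relative to its own mean over the 11 livers, was highest in FSH-treated mouse 2 (0.45) and lowest in saline-treated mice 1 (-0.41) and 2 (-0.35). The other 8 livers lay between -0.07 and 0.13, with FSH and saline livers mixed. FSH-treated mouse 2 had the highest value of its group for 7 of the 9 members, while it was the highest FSH liver for 33.5% of all genes tested. Among the other lists, it was the highest FSH liver for 7 of 9 tested WNT targets and feedback genes, 10 of 19 genes of the beta-catenin core, 8 of 17 ligand and receptor genes and 7 of 16 genes of glutamine handling. For the 25 further pericentral genes it was highest for 8 (32.0%) and lowest for 7, a share of highest values near that of all genes, and for the 24 periportal genes it was highest for 1 and lowest for 12. The exceptions among the members were Cyp1a2, which was highest in FSH-treated mouse 6, and Lect2, which was lower in mouse 2 than in any other FSH liver. The library of FSH-treated mouse 2 held 13558078 reads, which was within the range of the saline libraries.

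**Figure D3:**
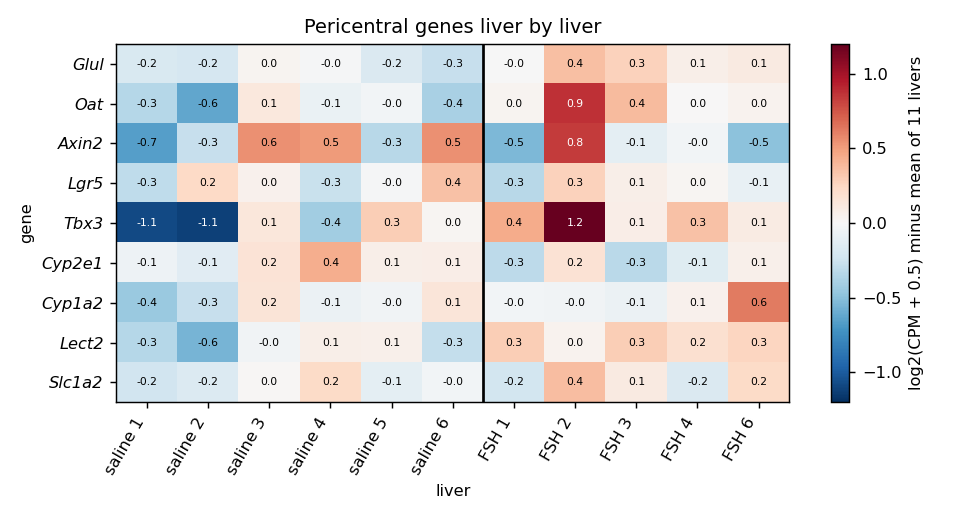
Log2(CPM + 0.5) of the 9 genes (rows) in each of the 11 livers (columns; saline left of the black line, FSH right), relative to the mean of the gene over all livers. Red is above and blue below that mean, and the column of FSH-treated mouse 2 is highest on average (0.45) while saline-treated mice 1 and 2 are lowest (-0.41 and -0.35).

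Other genes of the pathway were read from lists, ordered from the ligands to the targets. Of 27 WNT ligand, R-spondin and receptor genes, 17 were tested and 2 were called (11.8%, near the 10.6% of all genes tested). Both were lower, beside 4.41% of all genes tested called lower. Of the 17, 13 had a log2 fold change above 0 and 4 below, and the list median was 0.12. The endothelial ligand genes were low in both groups. Wnt2 averaged 1.94 ± 0.56 CPM (SD, n = 5) after FSH against 2.02 ± 0.64 CPM (SD, n = 6), with a 95% interval of the log2 fold change of -0.46 to 0.39 (limma adjusted p = 0.936). The R-spondin gene Rspo3 averaged 5.56 ± 0.76 CPM (SD, n = 5) against 5.23 ± 1.53 CPM (SD, n = 6), with an interval of -0.24 to 0.47 (limma adjusted p = 0.733). Wnt9b, with 1 to 12 reads per liver, did not pass the filter on low values. The genes that fell were Lrp5, a WNT co-receptor, from 72.2 ± 16.1 CPM (SD, n = 6) to 41.8 ± 8.80 CPM (SD, n = 5), and Porcn, whose enzyme attaches the lipid that WNT ligands need for secretion. The log2 fold changes were -0.78 for Lrp5 (95% interval -1.11 to -0.44, limma adjusted p = 0.00543) and -0.65 for Porcn (limma adjusted p = 0.018). For Lrp5 every FSH liver lay below every saline liver. Without FSH-treated mouse 1, the list had 1 called gene. Lgr4, a relative of Lgr5 that also binds R-spondins, was at 51.3 ± 6.30 CPM (SD, n = 5) and 49.7 ± 6.96 CPM (SD, n = 6), and the 95% interval of its log2 fold change was -0.19 to 0.29.

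The core of the beta-catenin pathway, with the degradation complex and the TCF and LEF partners, showed no call in limma (0 of 19 tested genes, beside 10.6% of all genes tested, and 2 at an unadjusted p under 0.05, beside 25.1%). The count was 0 in edgeR, 0 in voom and 2 in DESeq2, and 1 without saline-treated mouse 1. Ctnnb1, the gene of beta-catenin itself, averaged 165.2 ± 11.8 CPM (SD, n = 5) after FSH against 163.8 ± 23 CPM (SD, n = 6), and its log2 fold change was 0.02 with a 95% interval of -0.20 to 0.24. For Csnk1a1, the gene of a kinase that marks beta-catenin for degradation, it was 0.09 (limma adjusted p = 0.683).

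Of 18 other targets and feedback genes of the pathway, 9 were tested and 2 were called (22.2%, beside 10.6% of all genes tested). Both were higher, beside 6.19% of all genes tested called higher. Of the 9, 7 had a log2 fold change above 0 and 2 below, and the list median was 0.30. Tnfrsf19, a receptor gene of the tumor necrosis factor receptor family and a WNT target in other tissues, rose from 3.16 ± 0.78 CPM (SD, n = 6) to 11.6 ± 2.68 CPM (SD, n = 5), and every FSH liver lay above every saline liver (log2 fold change 1.74, 95% interval 1.35 to 2.12, limma adjusted p = 3.04e-05). Ccnd1, which encodes cyclin D1, rose from 34.5 ± 11.7 CPM (SD, n = 6) to 70.7 ± 23.1 CPM (SD, n = 5), with overlapping groups (log2 fold change 1.01, limma adjusted p = 0.0113). The genes of the ligases that remove WNT receptors showed log2 values of 0.09 for Znrf3 (limma adjusted p = 0.775) and 0.70 for Rnf43 (limma adjusted p = 0.081). Rnf43 was highest in FSH-treated mouse 2 with 23.6 CPM, as Axin2 and Tbx3 were.

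Of 25 further genes known to be higher near the central vein, 11 were called (44.0%, beside 10.6% of all genes tested), of which 6 rose and 5 fell, and the list median was 0.19 on the log2 scale. The lower genes were led by cytochrome P450 enzymes. Cyp2c54 fell from 236.5 ± 66.2 CPM (SD, n = 6) to 101.1 ± 48.3 CPM (SD, n = 5; log2 fold change -1.30, limma adjusted p = 0.00372), Cyp3a11 fell by 0.84 on the log2 scale (limma adjusted p = 0.00338) and Cyp2c50 by 0.52 on that scale (limma adjusted p = 0.0272). The higher genes included another cytochrome P450, Cyp2a5, which rose from 639.4 ± 164.9 CPM (SD, n = 6) to 1280 ± 316.7 CPM (SD, n = 5; log2 fold change 1.00, limma adjusted p = 0.00496). Gstm2 (log2 fold change 0.97, limma adjusted p = 0.00113) and Gstm3 (0.84, limma adjusted p = 0.0193), genes of glutathione transferases, also rose, as did Rnase4 (0.64, limma adjusted p = 0.00936) and Cyp7a1, the gene of the first enzyme of bile acid synthesis (1.06, limma adjusted p = 0.00884). The Cyp2c, Cyp2a and Gstm genes have close paralogs that could share reads. The count of 11 was 7 without FSH-treated mouse 1, 6 without mouse 3, 6 without mouse 4 and 7 without saline-treated mouse 3.

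Of 24 periportal genes, 7 were called (29.2%, beside 10.6%), 4 higher and 3 lower, and the list median was -0.078 on the log2 scale. Cyp2f2, a cytochrome P450 that is a common periportal marker, fell from 657.9 ± 30.9 CPM (SD, n = 6) to 344 ± 46.1 CPM (SD, n = 5), a log2 fold change of -0.94 (95% interval -1.15 to -0.74, limma adjusted p = 2.27e-05), and the groups did not overlap. Cdh1, which encodes E-cadherin, fell as well (-1.05, limma adjusted p = 0.0228), as did Pigr, the polymeric immunoglobulin receptor gene (-0.32, limma adjusted p = 0.0466). The genes that rose were those of nitrogen and sugar metabolism, namely Gls2, the liver glutaminase (0.74, limma adjusted p = 0.00123), Ass1 of the urea cycle (0.59, limma adjusted p = 0.0112), Fbp1 of gluconeogenesis (0.42, limma adjusted p = 0.0416) and the aldehyde dehydrogenase gene Aldh1b1 (0.42, limma adjusted p = 0.025). Both zonation lists thus held called genes in both directions. The count of 7 was 4 without FSH-treated mouse 1, 4 without mouse 3 and 3 without mouse 4.

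Genes around Glul and Oat in glutamine, glutamate and ornithine handling were read from a list of 20, of which 16 were tested and 4 were called (25.0%, beside 10.6%), 3 higher and 1 lower. Slc38a3, the glutamine transporter of hepatocytes, rose from 593.4 ± 63.6 CPM (SD, n = 6) to 1547 ± 371 CPM (SD, n = 5), a log2 fold change of 1.36 (95% interval 1.07 to 1.64, limma adjusted p = 2.15e-05), with no overlap between the groups. Prodh, which encodes proline dehydrogenase, rose too (0.72, limma adjusted p = 0.0104), as did Gls2, which the periportal list also holds. Glud1, which encodes glutamate dehydrogenase, fell (-0.39, limma adjusted p = 0.0156). The list median was 0.16, near the 0.20 of the pericentral members.

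**Figure D4:**
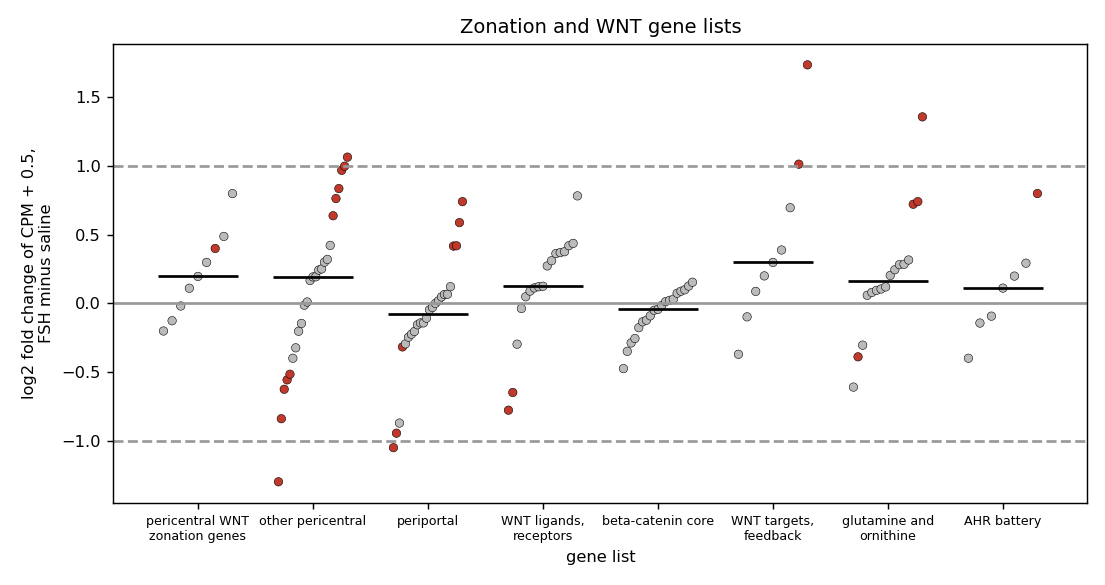
Log2 fold change of CPM + 0.5 between FSH and saline livers for each tested gene of 8 lists (points; red where the limma adjusted p was under 0.05, gray otherwise), with the list median as a black line and dashed lines at a log2 fold change of 1 in either direction. The pericentral WNT zonation genes hold 1 red point, Lect2, while the lists of other pericentral (11) and periportal genes (7) hold red points on both sides of 0.

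The make-up of the tissue was read from marker lists, whose counts stand beside 4.41% of all genes tested called lower, 6.19% called higher and 25.1% at an unadjusted p under 0.05. The hepatocyte genes, which include Alb, summed to between 110669 and 132622 CPM in FSH livers and between 105006 and 139121 CPM in saline livers, and 2 of the 8 (25.0%), Fgb and Hnf4a, were called lower. Endothelial markers, of which all 10 were detected, summed to 168.6 to 254.5 CPM with FSH and 199 to 226.6 CPM with saline, with 1 of the 10 called lower, Lyve1. Of 8 Kupffer cell and macrophage markers all had a log2 fold change below 0 (median -0.47), 4 had an unadjusted p under 0.05 and 1 (12.5%), Cd68, was called lower, with sums of 122.7 to 328.7 CPM against 212.4 to 387.1 CPM. FSH-treated mouse 4 was the highest FSH liver for 8 of these 8 markers and for 9 of the 10 endothelial markers, and mouse 3 was the lowest for 8 of the 8 macrophage markers. Of 8 stellate cell markers 0 were called in limma (0 also at an unadjusted p under 0.05), with sums of 215.3 to 313.3 CPM against 248.5 to 354.7 CPM. Of 5 tested cholangiocyte markers 1, Krt7, was called higher, with sums of 48.2 to 69.5 CPM against 38.3 to 55.7 CPM. The 5 erythroid genes had 0 calls and 0 at an unadjusted p under 0.05, with sums of 464.2 to 790 CPM against 424.8 to 1009 CPM. The 7 pancreatic acinar genes, 3 of them at 0 in every liver, summed to at most 1.21 CPM with FSH and 0.685 CPM with saline, and the 5 adipocyte genes, 2 of them at 0 in every liver, to at most 0.227 and 0.525 CPM. At an unadjusted p under 0.05 there were 2 hepatocyte, 2 endothelial and 2 cholangiocyte markers. The 1 tested pancreatic acinar gene, which was higher with FSH and not called, was also at an unadjusted p under 0.05. The part of these differences in the values of the pericentral genes was not tested.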

How the data were processed

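Whole liver RNA was sequenced from 11 OVX females on HFD, and groups were taken from the sample labels. According to the study's methods, RNA above an integrity minimum was made into NEB Next Ultra libraries and sequenced in pairs by Illumina HiSeq. The values deposited by the authors are CPM for each gene and liver, which sum to 1000000 in every library, with no scaling between libraries. The submitters' processing notes name mm10, FastQC 0.11.2, cutadapt, Trim Galore 0.3.3, STAR and RSEM. The annotation and the use of strand are not given in the sources used here. All values (100%) were whole multiples of the smallest value of their library (within 0.05 reads). The whole numbers so recovered are called reads here, but since RSEM gives estimates, they may be estimates rounded before scaling, and whether they were is not given in the sources used here.

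Identifiers were matched without version to GENCODE M21 symbols (35555 of 36788), whose build, GRCm38, is that of mm10. The log2(CPM + 0.5) values were tested with limma 3.58.1 in R 4.3.3 (eBayes with an intensity trend, Benjamini-Hochberg adjustment over 12733 genes), and single members with an exact permutation test. Scripts were tested on simulated data. Alternatives changed the pseudocount, the filter, the scaling, the trend or the weights of the libraries, blocked on the replicate number, left out each library, or used voom, edgeR 4.0.16 and DESeq2 1.42.0 on the recovered reads. The lowest mean chi-square per gene between libraries of a group was 11.4, so none was a repeat of another.

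The members, lists and tests were chosen with earlier results of these data known. Named are all members, from each pathway list the called genes (at most 8 by smallest p, and the 2 most abundant where fewer than 2 passed), Wnt2, Wnt9b, Rspo3, Lgr4, Znrf3 and Rnf43, and for each called member the 3 genes nearest to it. For the cell type lists, the called markers were named after their values were seen, and Alb was named as a defining hepatocyte gene.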

Additional observations from a re-analysis of the deposited data

Results flagged for a closer look

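In 3 of 18 groups of values (9 genes in 2 groups of livers), a single liver stood apart from its group by Dixon's test. The test was run on CPM at the 95% level, where chance gives about 1 in 20 for normally distributed values. High values stand further apart on that scale than on the log2 scale of the other tests, on which Dixon's test was not run. Axin2 was at 9.37 CPM in FSH-treated mouse 2, while the other FSH livers lay between 3.32 and 4.91 CPM. Tbx3 was at 43.1 CPM in the same liver, with the others between 19.7 and 25.5 CPM. Cyp1a2 was at 574.3 CPM in FSH-treated mouse 6, with the others between 354.8 and 386.1 CPM.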

How the results depend on the processing

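The count of 1 called member (Lect2) rested on the settings. It was 0 with no filter on low values, with TMM or median-of-ratios scaling, with eBayes without trend, with edgeR and with voom, 2 with a filter at a mean of 1 CPM, 3 with DESeq2 (Glul, Oat and Tbx3, not Lect2), and 0 to 2 when each liver was left out. No alternative brought a member past both thresholds. Among the members Lgr5 alone changed sign, to log2 fold changes of 0.062, 0.026 and 0.05 when FSH-treated mouse 1, saline-treated mouse 2 or saline-treated mouse 6 was left out (range over all livers left out -0.090 to 0.062). Over all genes tested the 1350 calls became 803 without FSH-treated mouse 1 and ranged to 1659 over the livers left out. The calls of the lists ranged, as each liver was left out, from 6 to 12 (other pericentral), 3 to 7 (periportal), 1 to 3 (ligands and receptors), 0 to 1 (beta-catenin core) and 1 to 3 (aryl hydrocarbon receptor). With no filter, the pericentral and periportal lists had 7 and 4 calls. The beta-catenin core had 1 call with array weights, 2 with the replicate block and 2 with DESeq2. The aryl hydrocarbon receptor list had 2 with TMM scaling, array weights, the replicate block, edgeR, DESeq2 and voom. The labels do not say whether equal replicate numbers pair the livers. Correlations of deviations between equal numbers were between -0.07 and 0.36, with 1 of 5 FSH livers closest to its own number. Such correlations cannot exclude a shared cage or day. With the replicate block the count of called members was 1 and that over all genes 1210. Saline-treated mouse 5 has no FSH liver of its number, so it did not enter the differences of that fit. The cause of these shifts was not tested. The members with the fewest reads were Axin2 (36 to 127) and Lgr5 (39 to 87), with standard errors of the log2 fold change of 0.28 and 0.15.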
